A study of Drosophila melanogaster with 8 samples.

Results

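Genes that set the identity of photoreceptors and cone cells in the Drosophila eye were followed in adult heads with and without HEXIM knockdown. They were chosen by name as transcription factors and signals of photoreceptor and cone fate, together with the lens gene Crys, and every probe set annotated to 1 of these symbols alone was taken. The 10 genes were Pph13, pros, gl, sens, ro, svp, sev, boss, lz and Crys. Of these, 9 were read by 11 probe sets, among 11982 genes with a probe set of their own name on the array. Crys had no probe set that carries its name in the annotation used here, and it was not analysed here.

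In the eye disc, cells are recruited into each ommatidium in a fixed order behind the morphogenetic furrow. The founder photoreceptor, R8, expresses sens and presents the ligand Boss, which the receptor Sevenless reads on the cell that becomes R7. Transcription factors such as Rough, Seven-up, Lozenge and Prospero then separate the outer photoreceptors, R7 and the cone cells, while Glass is required in all photoreceptors. Most of these choices are made in the larva, and the adult head shows what RNA the mature cells still hold.

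The arrays compared whole adult heads of wild type (WT) flies with heads of GMR-Gal4>UAS-Hexim-RNAi flies, with 4 samples in each group that the labels call biological replicates. All samples are labelled with the W118 strain, and the labels give rearing at 29°C for all of them, with neither the age nor the sex of the flies. The GMR-Gal4 driver expresses the hairpin RNA in differentiating eye cells behind the furrow, through binding sites for Glass, which is 1 of the genes described here. The WT flies carried neither driver nor transgene, so that the loss of HEXIM cannot be told apart from the presence of Gal4 or of the construct. Each sample pooled many heads, and brain, fat body, muscle and antennae were extracted along with the eyes. In such bulk samples, fewer cells of a type and less RNA per cell cannot be told apart.

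Each Affymetrix Drosophila_2 probe set gives 1 log2 level per array, read near the 3' end of the transcript, so that a difference of 1 is a doubling. The threshold for a call was an adjusted p under 0.05 in limma, over 18769 probe sets. Hexim itself differed by -0.33 on the log2 scale (adjusted p = 0.418 from limma), with every HEXIM knockdown array below every WT array, although this probe set may read the hairpin as well. The 19 photoreceptor terminal genes with a probe set of their own name were well read. Their mean level was 10.72 to 11.05 in WT and 10.68 to 10.95 in HEXIM knockdown arrays. WT replicates 1 and 3 and HEXIM knockdown replicate 4 stood apart from the other 5 arrays. The level of their middle probe sets minus that of the 3' ones, for the control genes GAPDH and Act5C, was -2.97 to -3.20, against -2.01 to -2.29 in the other 5, a measure in common use for the state of the RNA. For Pph13, pros, lz, sens, sev and 1 svp probe set, the difference is also given within each class of arrays.

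None of the 9 measured cell fate genes passed the test: 0 of the 11 probe sets were called, where 0.256% of all probe sets were. At an unadjusted p under 0.05 from limma there were 2, Pph13 and pros, against 7.24% of all probe sets, and both had their higher mean in HEXIM knockdown. The differences were small, from -0.30 for lz to 0.33 for Pph13 on the log2 scale. Their median was 0.10, beside -0.02 over all probe sets, with 8 differences above 0 and 3 below. Pph13 was the only probe set whose groups did not overlap, where 5.35% of all probe sets did not, 1.99% with HEXIM knockdown higher. The intervals of single probe sets, plotted as differences between genotypes, reached at most 0.63 below and 0.55 above 0.

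**Figure D1:**
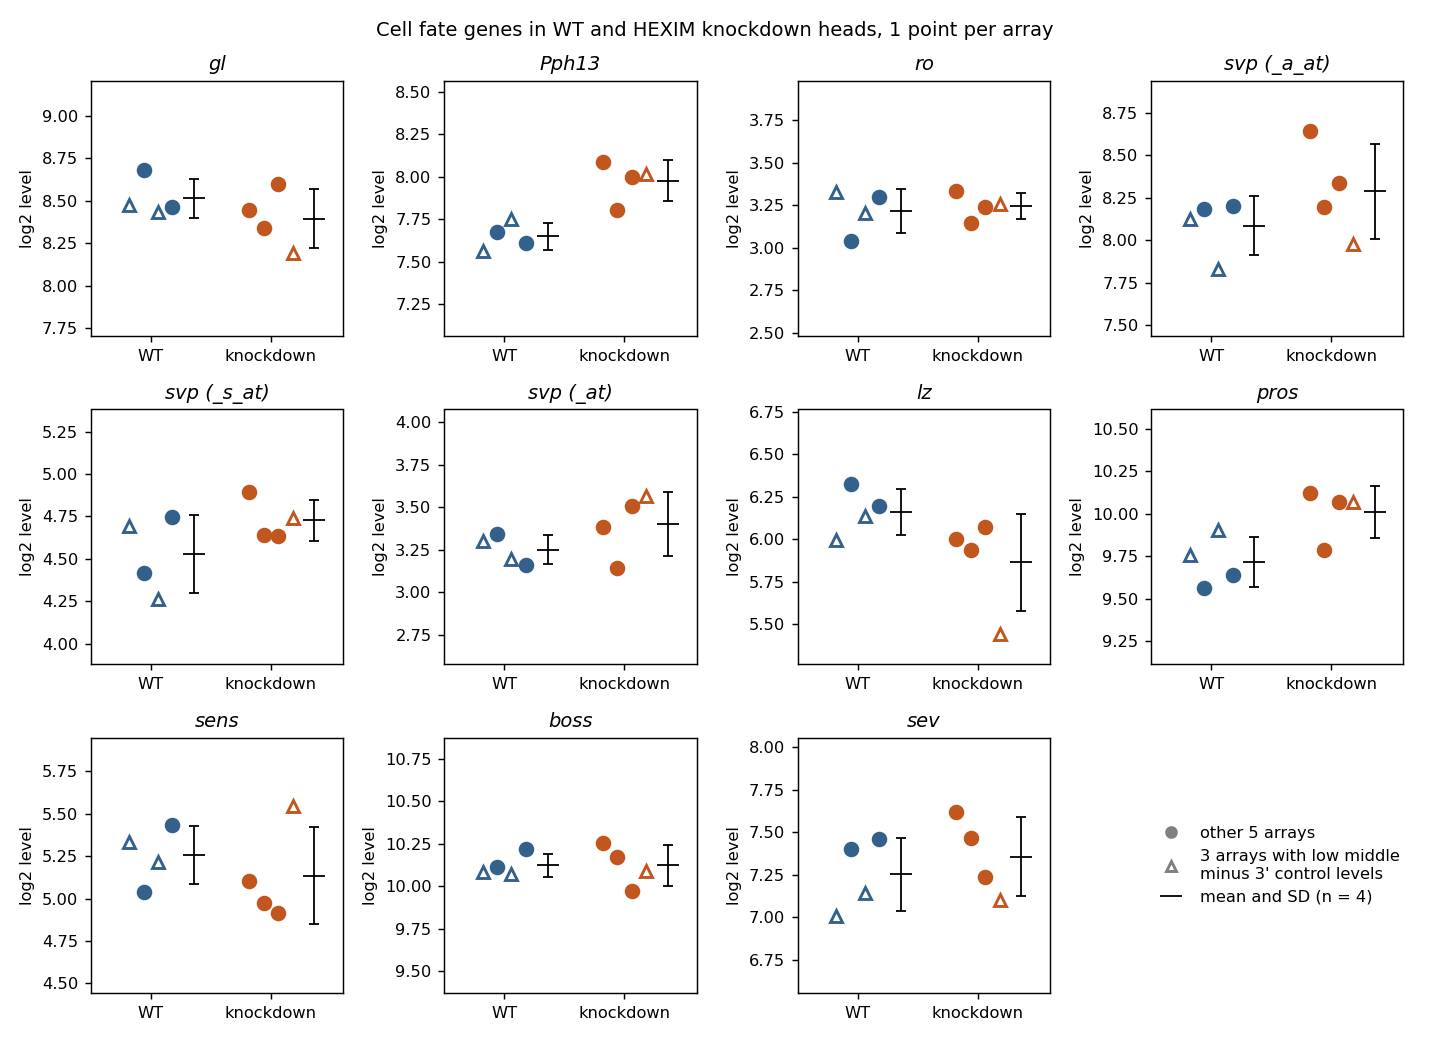
Log2 level (vertical axis, each panel spanning the same number of units) of the 11 probe sets of the 9 measured genes in each of the 8 arrays, WT in blue and HEXIM knockdown in orange, with the mean and SD (n = 4) beside them. Open triangles are the 3 arrays with low middle minus 3' control levels. The groups stand apart for Pph13 alone, and for sev and the _a_at probe set of svp the 3 triangles lie below all circles.

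Glass, a zinc finger factor that photoreceptors need for their identity, was read at 8.48, 8.68, 8.43 and 8.47 in WT replicates 1 to 4 and at 8.45, 8.34, 8.60 and 8.19 in HEXIM knockdown replicates 1 to 4. The groups overlapped, and HEXIM knockdown replicate 4, 1 of the 3 arrays apart, was lowest. The mean was 8.51 ± 0.11 in WT and 8.40 ± 0.17 in HEXIM knockdown (SD, n = 4), a log2 fold change of -0.12 with a 95% interval of -0.36 to 0.12 (adjusted p = 1.000 from limma). Without HEXIM knockdown replicate 4 or 3 the difference was -0.05 or -0.19, and it was -0.06 without WT replicate 2. A fall of gl below 0.779-fold or a rise above 1.09-fold lies outside the interval over all 8 arrays.

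Pph13, a homeodomain factor that photoreceptors use to build the rhabdomere and to express phototransduction genes, showed the clearest separation. Its levels were 7.56, 7.67, 7.75 and 7.61 in WT and 8.09, 7.80, 7.998 and 8.01 in HEXIM knockdown, in the order of the replicate numbers. Every HEXIM knockdown array lay above every WT array, with a gap from 7.75 to 7.80 between the closest arrays. The mean was 7.65 ± 0.08 in WT and 7.98 ± 0.12 in HEXIM knockdown (SD, n = 4), 1.25-fold higher, which is a difference of 0.33 (SE 0.09, 95% interval 0.13 to 0.52). The exact two-sided permutation test gave p = 0.0286, the smallest that 4 arrays against 4 allow. The adjusted p from limma was 0.292, at rank 306 of all probe sets by absolute t, so that Pph13 did not pass the test.

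For Pph13 the 3 arrays apart lay close to the others. They deviated from the others of their genotype by 0.02 in WT and 0.05 in HEXIM knockdown, and the difference between genotypes was 0.32 in the other 5 arrays and 0.36 in the 3. With the array class as a block the log2 fold change stayed at 0.33, at an adjusted p of 0.129 from limma. Without any 1 array it ranged from 0.29 to 0.38. Groups that are apart with all arrays stay apart when an array is left out, so that their separation is no further result. With array weights, which lean on HEXIM knockdown replicate 2, it was 0.19 at an adjusted p of 0.212 from limma.

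Prospero, the homeodomain protein of R7 and cone cells, which neural progenitors, glia and other neurons of the brain also use, was read at 9.76, 9.56, 9.90 and 9.64 in WT and at 10.12, 9.79, 10.07 and 10.07 in HEXIM knockdown. The groups met at HEXIM knockdown replicate 2, which lay below WT replicate 3, while the other 3 HEXIM knockdown arrays were above all WT arrays. The mean was 9.72 ± 0.15 in WT and 10.01 ± 0.15 in HEXIM knockdown (SD, n = 4), a difference of 0.30 (SE 0.11, 95% interval 0.05 to 0.54). It did not pass the test, at an adjusted p of 0.541 in limma and p = 0.0571 in the exact two-sided permutation test. In the 5 arrays outside the class of low control levels the groups did not overlap, as for 26.6% of all probe sets. These 5 leave out WT replicate 3, the only WT array above HEXIM knockdown replicate 2. The difference was 0.39 in the 5 arrays, against 0.24 in the 3. With array weights it was 0.17, with a 95% interval of -0.05 to 0.38. Neuron markers, elav among them, had a mean level of 9.28 to 9.33 in WT and 9.22 to 9.40 in HEXIM knockdown, and 0 of 9 were called. Glial markers, repo among them, had a mean level between 10.15 and 10.27 in WT and between 9.96 and 10.09 in HEXIM knockdown, with 0 of 6 called. Single glial markers varied, from moody at -0.60 and wrapper at -0.41 to repo at -0.10, and 2 of the 6, nrv2 and alrm, were above 0. The mean of the neuron list thus overlapped between genotypes and that of the glial list was lower where pros was higher. The part of these cells in the level of pros was not tested.

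Lozenge, a Runx factor of the late photoreceptors and cone cells that also specifies the crystal cells of the blood, had the largest negative difference of the 11 probe sets. It stood at 5.996, 6.32, 6.14 and 6.19 in WT and at 6.005, 5.94, 6.07 and 5.44 in HEXIM knockdown. HEXIM knockdown replicate 4 was far below the rest, and HEXIM knockdown replicates 1 and 3 lay just above WT replicate 1. The mean was 6.16 ± 0.14 in WT and 5.86 ± 0.29 in HEXIM knockdown (SD, n = 4). The difference of -0.30 (SE 0.15, 95% interval -0.63 to 0.04) had an adjusted p of 0.777 in limma and an exact two-sided permutation p of 0.0857.

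The value of lz followed the array class in part. Within each genotype the arrays of low control levels were lower, by 0.19 in WT and 0.56 in HEXIM knockdown, where this class holds 1 array. Over all 8 arrays the classes overlapped, since WT replicate 3 lay above the HEXIM knockdown arrays of the other class. Without HEXIM knockdown replicate 4 the log2 fold change was -0.16. In the 5 arrays of the other class it was -0.25, with the groups apart, as for 26.6% of all probe sets. In the 3 arrays it was -0.62, where only 1 was a HEXIM knockdown array. With the class as a block it was -0.39 (SE 0.09), at an adjusted p of 0.117 in limma, so that lz stayed short of the threshold in each of these fits. The haemocyte markers had a mean level of 6.71 to 6.97 in WT and 6.84 to 7.08 in HEXIM knockdown, and 0 of 8 were called, with 5 above 0 and 3 below. Among them, crq at -0.22 was lower in every HEXIM knockdown array, and the crystal cell enzyme PPO2, stood at 6.93 ± 0.09 in WT and 7.60 ± 0.25 in HEXIM knockdown (SD, n = 4), with an adjusted p of 0.136 from limma. The other crystal cell enzyme of the list, PPO1, stood at 6.53 ± 0.23 and 6.95 ± 0.51, with groups that overlapped. These 3 were named after their values were seen. Their part in the level of lz was not tested.

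**Figure D2:**
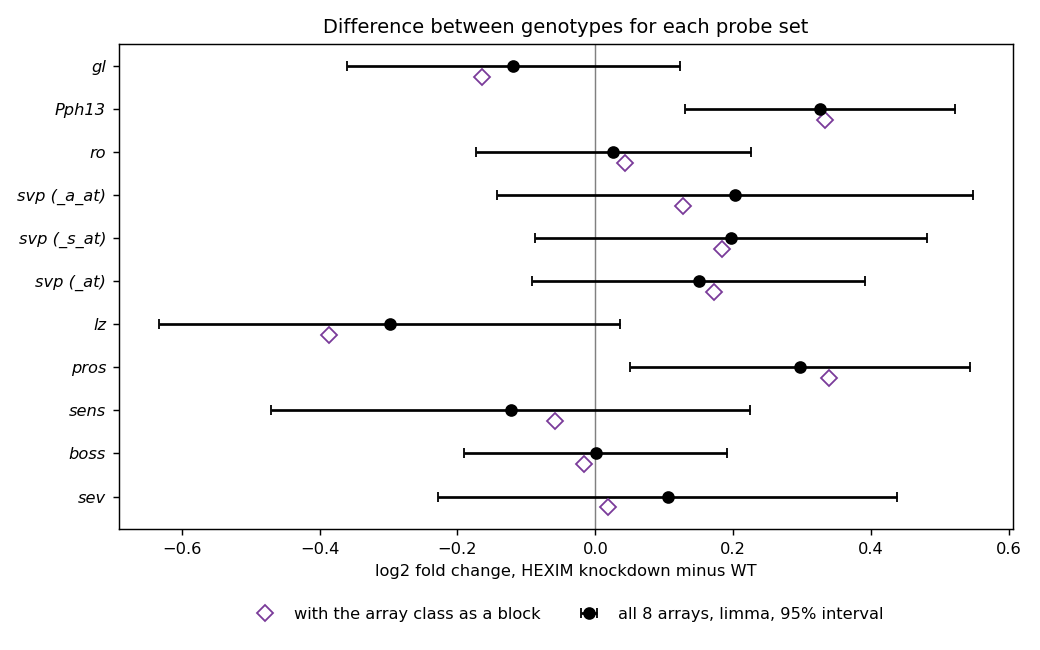
Log2 fold change, HEXIM knockdown minus WT (horizontal axis), for each of the 11 probe sets, as filled points with 95% intervals from limma on all 8 arrays and as open diamonds with the array class as a block. The intervals of Pph13 (0.13 to 0.52) and pros (0.05 to 0.54) lie above 0 before adjustment, the block moves lz from -0.30 to -0.39, and it moves sev from 0.10 to 0.02.

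Seven-up, a nuclear receptor that keeps a subset of outer photoreceptors from the R7 fate, was the only gene with several probe sets. The first, with the suffix _a_at of probes designed for alternative transcripts of a gene, read 8.12, 8.18, 7.83 and 8.20 in WT and 8.64, 8.19, 8.34 and 7.98 in HEXIM knockdown. The groups overlapped, and the 3 arrays apart were the lowest of all 8. The genotypes differed by 0.20 on the log2 scale (SE 0.15, 95% interval -0.14 to 0.55), at an adjusted p of 0.980 in limma, and by 0.20 in the other 5 arrays and -0.00 in the 3. The difference was 0.08 without HEXIM knockdown replicate 1, 0.12 without WT replicate 3 and 0.31 without HEXIM knockdown replicate 4.

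A further svp probe set, whose suffix _s_at marks probes that may be shared with other transcripts, read 4.69, 4.42, 4.27 and 4.75 in WT and 4.90, 4.64, 4.63 and 4.74 in HEXIM knockdown. It differed by 0.20 between the genotypes (SE 0.13), and limma gave an adjusted p of 0.919. Without 1 array the difference ranged from 0.11 (WT replicate 3) to 0.27 (WT replicate 4). The remaining one, with the plain suffix _at, lay below the 25th percentile of mean levels on the array, 4.00, at 3.16 to 3.34 in WT and 3.14 to 3.56 in HEXIM knockdown and a difference of 0.15 (SE 0.11), for which limma gave an adjusted p of 0.963. All 3 svp probe sets thus gave a difference above 0 that its interval did not separate from 0, and they read 1 gene, so that they are not 3 independent observations.

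The fat body, where svp is also used in flies, was read by 7 markers whose mean level varied widely between arrays. This mean was 11.16, 11.58, 9.55 and 11.63 in WT replicates 1 to 4 and 12.28, 12.04, 11.45 and 11.22 in HEXIM knockdown replicates 1 to 4. WT replicate 3 was lowest and HEXIM knockdown replicate 1 highest, as they were for the first svp probe set. The difference of all 7 markers was above 0, with a median of 0.91 and 0 called by limma. However, 4 of the 7, Yp1, Yp2, Yp3 and fit, are known as female genes, and the labels do not give the sex of the flies. In WT replicate 3, fit was at 5.18 against 9.17 to 10.08 in the other WT arrays, while the fat body gene Fbp1 was at 8.48, the highest of WT. The parts of fat body RNA and of the sex of the flies in the svp level were not tested.

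Rough, a homeodomain factor of an early pair of outer photoreceptors, also lay below the 25th percentile of mean levels. It read 3.33, 3.04, 3.21 and 3.30 in WT and 3.33, 3.15, 3.24 and 3.26 in HEXIM knockdown. All 8 arrays thus lay within a narrow band, with the HEXIM knockdown arrays inside the range of the WT arrays to the second decimal. The mean was 3.22 ± 0.13 in WT and 3.25 ± 0.08 in HEXIM knockdown (SD, n = 4), which differ by 0.03 (95% interval -0.17 to 0.23). At such a level little or no ro RNA may have been read, and a difference could have gone undetected.

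Senseless, the zinc finger factor that maintains the R8 fate and is known for sensory organ precursors across the fly, read 5.33, 5.04, 5.21 and 5.44 in WT and 5.10, 4.97, 4.91 and 5.54 in HEXIM knockdown. The highest array was HEXIM knockdown replicate 4, while HEXIM knockdown replicates 2 and 3 lay below all WT arrays and replicate 1 lay above WT replicate 2 alone. The mean was 5.26 ± 0.17 in WT and 5.13 ± 0.29 in HEXIM knockdown (SD, n = 4), a difference of -0.12 (SE 0.15, 95% interval -0.47 to 0.22) with an adjusted p of 1.000 in limma. The difference changed its sign with the class of the array, at -0.24 in the 5 arrays and 0.27 in the 3, of which only 1 was a HEXIM knockdown array. Without 1 array it ranged from -0.05 (HEXIM knockdown replicate 3) to -0.26 (HEXIM knockdown replicate 4).

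The signal between R8 and R7 was read by 1 probe set for the ligand and 1 for the receptor. Bride of sevenless, the membrane ligand on R8, stood at 10.08, 10.11, 10.07 and 10.22 in WT and at 10.25, 10.17, 9.97 and 10.09 in HEXIM knockdown. Both groups had a mean of 10.12, with an SD of 0.07 in WT and 0.12 in HEXIM knockdown (n = 4). The log2 fold change was 0.00, and its 95% interval of -0.19 to 0.19 leaves room for a fall to 0.876-fold or a rise to 1.14-fold. This was the smallest difference of the 11 probe sets.

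Sevenless, the receptor tyrosine kinase of the R7 precursor, read 7.01, 7.40, 7.14 and 7.46 in WT and 7.62, 7.47, 7.24 and 7.10 in HEXIM knockdown. The arrays split by class and not by genotype, since the 3 arrays of low control levels read 7.01, 7.14 and 7.10 and the other 5 read 7.24 or more. The mean was 7.25 ± 0.21 in WT and 7.36 ± 0.23 in HEXIM knockdown (SD, n = 4), a difference of 0.10 (SE 0.15, 95% interval -0.23 to 0.44) with an adjusted p of 1.000 in limma. Within a class the genotypes differed by 0.01 in the 5 arrays and 0.03 in the 3, whereas the classes differed by 0.35 in WT and 0.34 in HEXIM knockdown. With the class as a block the difference between genotypes was 0.02, and without 1 array it ranged from 0.02 (HEXIM knockdown replicate 1) to 0.19 (HEXIM knockdown replicate 4).

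Across the 11 probe sets, the difference between the array classes varied, and whether the counts below depart from the shares over all probe sets was not tested. In 2 of them, sev and the first svp probe set, the 3 arrays lay below all other 5, as 12.7% of all probe sets did, and in 0 did they lie above, as 19.9% did. Within both genotypes, 5 probe sets were lower and 4 higher in this class. The sign of the difference between genotypes was the same in both classes for 7 probe sets. For the counts within genotypes and of equal signs, the share over all probe sets is not given, so that they only describe. HEXIM knockdown replicate 4 is the only array of its genotype in this class, and 3 of the 11 probe sets read svp. Among the 5 arrays of the other class, Pph13 and pros were higher and lz lower in every HEXIM knockdown array, 3 of 11 probe sets, where 26.6% of all probe sets had no overlap between 2 WT and 3 HEXIM knockdown arrays, 11.3% with HEXIM knockdown higher and 15.3% lower.

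**Figure D3:**
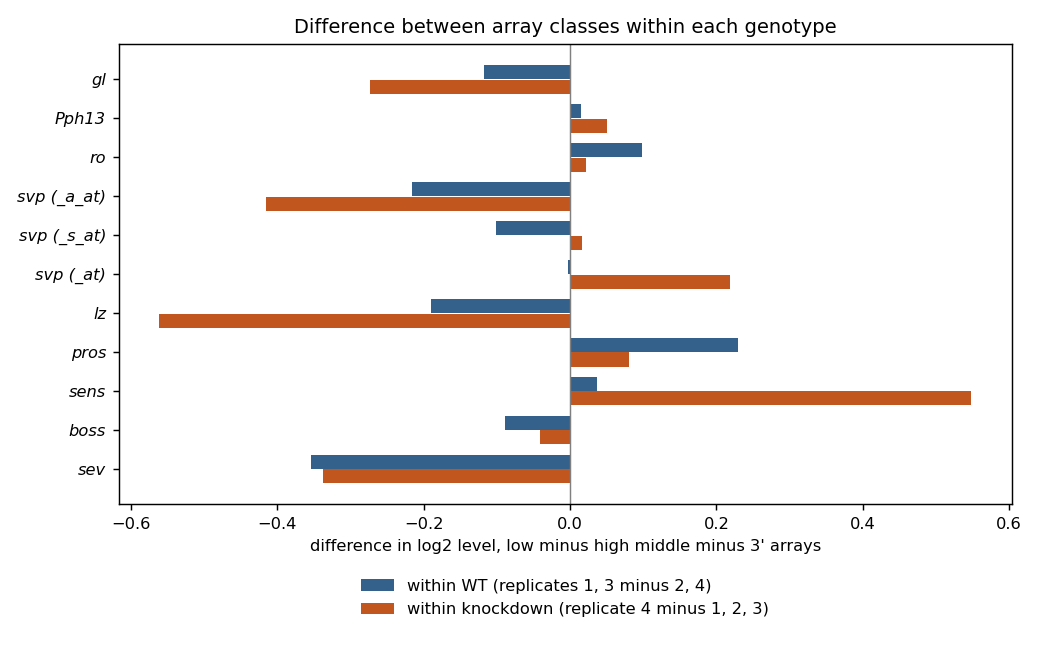
Difference in log2 level between the 3 arrays with low middle minus 3' control levels and the others (horizontal axis), within WT (blue, replicates 1 and 3 minus 2 and 4) and within HEXIM knockdown (orange, replicate 4 minus 1, 2 and 3), for each of the 11 probe sets. The bars of sev reach -0.35 and -0.34 and those of Pph13 reach 0.02 and 0.05.

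Genes around these members in the recruitment of photoreceptors and cone cells were described from 9 lists, in which 79 of 109 entries besides the members were measured. Of these, 0 were called higher and 1 lower, rst, and the median log2 fold change was -0.03, with 34 above 0 and 45 below. The groups did not overlap for 5 of the 79, which is 6.33%, near the 5.35% of all probe sets. For the founder genes of R8, 6 of 6 measured differences lay between -0.04 (gro) and -0.01 (E(spl)mdelta-HLH), and 2 of the 6, E(spl)mdelta-HLH and amos, were below the 25th percentile of mean levels, where a difference could go undetected.

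Further along the signal, 6 of 7 measured genes of the EGF receptor list had a difference above 0, with a median of 0.19 and 0 called. The highest was Star (S), which helps to traffic the ligand Spitz, with 5.24 ± 0.24 in WT and 5.72 ± 0.34 in HEXIM knockdown (SD, n = 4) and an adjusted p of 0.604 from limma. The 3 arrays apart were also its lowest, and in the other 5 the difference was 0.43. In the cascade from Sevenless to Ras the 8 measured genes were centred at -0.01, between Sos, the exchange factor of Ras, at -0.21 and sty, an inhibitor of the pathway, at 0.19. Sos was lowest in the 3 arrays apart and differed by -0.24 in the other 5.

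Among nuclear targets of the R7 signal, phyl, which marks the repressor Tramtrack for destruction together with Sina, had groups that did not overlap. It stood at 8.81, 8.79, 8.84 and 8.73 in WT and at 8.97, 9.11, 9.05 and 9.09 in HEXIM knockdown. The arrays of each group lay close together, at 8.79 ± 0.05 and 9.05 ± 0.06 (SD, n = 4), and the genotypes differed by 0.26 (SE 0.07), at an adjusted p of 0.290 in limma. It did not pass the test, like the other 6 measured genes of its list, of which ebi was lowest at -0.12.

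The photoreceptor subtype list, 15 measured genes that set the kind of photoreceptor and its opsin, was centred at -0.03, between B-H2 at -0.19 and melt at 0.41 (SE 0.34), with 0 called. The 3 arrays apart were the lowest for melt, which differed by 0.36 in the other 5. Among cone and pigment cell genes, rst was the one called gene. It encodes an adhesion protein that sorts the pigment cells between ommatidia, and it stood at 8.64, 8.77, 8.89 and 8.77 in WT and at 7.02, 7.23, 7.50 and 7.99 in HEXIM knockdown. All HEXIM knockdown arrays were below all WT arrays, and the genotypes differed by -1.33 (SE 0.19), at an adjusted p of 0.0450 in limma. The call was lost without any 1 of the arrays other than HEXIM knockdown replicate 4, where the log2 fold change was -1.19 to -1.37 and the adjusted p from limma 0.0602 to 0.197. The other 8 measured genes of this list ran from sv, a Pax factor of cone cells, at -0.34 to sns at 0.23, and sv was highest in the 3 arrays apart and differed by -0.12 in the other 5.

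The lens was represented by 3 secreted proteins, since Crys had no probe set of its own name, and all 3 had a difference below 0 with 0 called. Retinin, a main component of the corneal surface, differed by -0.03 (SE 0.08), and Cpr72Ec by -0.37 (SE 0.20, adjusted p = 0.846 from limma). The third, Cpr66D, differed by -0.18 (SE 0.08, adjusted p = 0.688 from limma), with every HEXIM knockdown array below every WT array. Of 29 photoreceptor terminal genes, some of which Glass and Pph13 help to switch on, 19 had a probe set of their own name. In the annotation used here ninaE, Rh2 to Rh6, norpA and ninaC had none. Their levels were not analysed, and the values below do not cover them. Of the 19, 12 were below 0 and 7 above, with a median of -0.09 and 0 called. They ran from rdgC, a rhodopsin phosphatase, at -0.34 (SE 0.11, adjusted p = 0.421 from limma) to the opsin Rh7 at 0.34 (SE 0.09, adjusted p = 0.286 from limma). The groups did not overlap for 2 of the 19, where 5.35% of all probe sets did not, and a departure from that share was not tested. The 2 were this probe set of Rh7 and, lower in HEXIM knockdown, the channel gene trpl at -0.29. A further Rh7 probe set differed by 0.08, with groups that overlapped. The 10 measured genes of retinal determination were centred at -0.00, between eyg at -0.32 and ey at 0.13, with 0 called. The 3 arrays apart were the highest for eyg, which differed by -0.15 in the other 5.

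**Figure D4:**
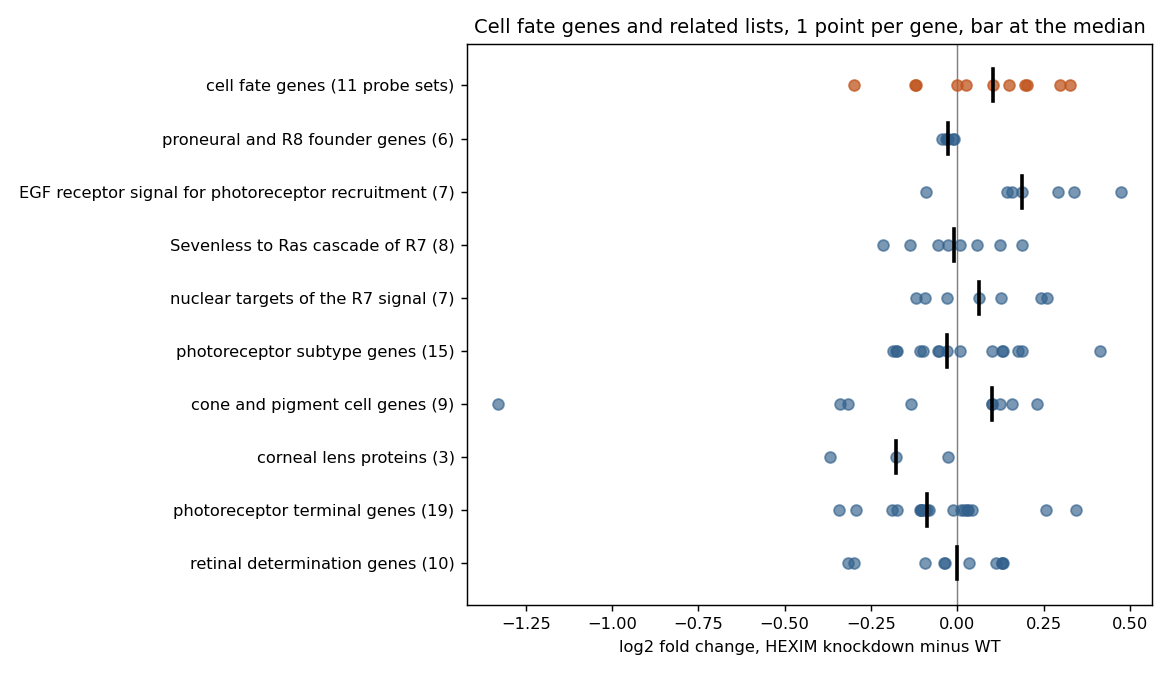
Log2 fold change, HEXIM knockdown minus WT (horizontal axis), of the 11 cell fate probe sets (orange) and of the measured genes of 9 related lists (blue, 1 point per gene, number of genes in brackets), with a bar at each median. The medians lie between -0.18 for the lens proteins and 0.19 for the EGF receptor list, and rst at -1.33 is the only called gene.

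The genes whose levels followed a member most closely over the 8 arrays were sought among all probe sets with 1 gene symbol, as a description over arrays that share 1 normalization and the array class. The highest Pearson r for the 9 members lay between 0.959 and 0.994. Pph13 and pros shared 1 of their 3 closest genes, pdm3, a POU factor of neurons, with r = 0.94 for Pph13 and 0.96 for pros, and 0.85 and 0.90 after each genotype's mean was removed. The gene pdm3 itself differed by 0.17 on the log2 scale between the genotypes. For the members that split by array class, the closest genes were RpL40, Pax and CG30376 for sev, with r of 0.98, 0.98 and 0.97, and GstO2, Vago and Mur2B for the first svp probe set, with r of 0.98, 0.97 and 0.97. For lz they were Nsun5, CG32278 and eIF3a, with r of 0.99, 0.98 and 0.98. Every member thus had a close partner among so many genes, and these values are no more than an order of likeness.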

How the data were processed

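The arrays were Affymetrix Drosophila_2, with 1 array for each of 4 WT and 4 HEXIM knockdown samples of total RNA from whole heads. The authors deposited 1 log2 signal per probe set and array. For this step, Affymetrix Expression Console and RMA are listed in the submitters' processing notes, and GCRMA in the study's methods. Array medians were 5.43 to 5.57, and precision is limited by the number of arrays. HEXIM knockdown minus WT was fitted to 18769 probe sets, leaving out 183 controls, by lmFit and eBayes of limma 3.58.1 (R 4.3.3) with no block, followed by Benjamini-Hochberg adjustment. The platform annotation gave 1 symbol to 13647 of them, several to 402 and none to 4720. The probe set with the highest mean stood for a gene in the related lists.

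Tables, exact permutation tests and figures were made in Python 3.11.15 (numpy 2.4.6; pandas 2.3.3; scipy 1.17.1; drawing by matplotlib 3.10.9), and the fit was tested on simulated data. Members and lists were chosen with earlier results of these data known. Every member was named, with the called genes of each list or else its highest and lowest, Hexim, Rh7 and rst. Related genes outside this rule, such as trpl, Cpr66D, sv, sns and amos, were named after their values were seen. Other settings were listed beforehand in 18 cases, besides 2 for the lists, and the array class block was added after seeing the data. No sequences or coordinates were used.

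The correlation of same-numbered samples, after the group means were removed, was -0.11, 0.57, -0.19 and -0.72 for replicate numbers 1 to 4. Numbers 1, 3 and 4 each join 1 array of low control levels with 1 array of the other class. For these numbers the array class could lower the correlation whether or not the samples were paired. Only number 2, at 0.57, joins arrays of the same class. These values therefore cannot decide whether the replicate numbers pair the samples.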

Additional observations from a re-analysis of the deposited data

Results flagged for a closer look

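Of 22 groups of 4 arrays, 1 held an array far from the others, where chance gives 1.1 (1 in 20). It was pros, the Prospero gene, in HEXIM knockdown replicate 2, at a log2 level of 9.79, with the other HEXIM knockdown arrays at 10.07 to 10.12. Without this array the log2 fold change of pros was 0.37, with an adjusted p of 0.512 from limma. The groups of pros then did not overlap, as for 6.83% of all probe sets, since this HEXIM knockdown array alone had lain below a WT array.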

How the results depend on the processing

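Under all 19 alternatives 0 member probe sets were called, while the count over all probe sets, 48 with all arrays, was 10 to 48 without 1 array, 1 with the replicate block, 507 with array weights, 112 with the control level as a covariate, 132 with the array class as a block, 3 without the 3 arrays apart and 9 with no moderation. The count of members with groups apart, 1 with all arrays, was 1 to 3 without 1 array: 2 without WT replicate 1 (Pph13 and lz) or WT replicate 3 (Pph13 and pros), and 3 without HEXIM knockdown replicate 2 (Pph13, pros and the dim svp probe set). It was 3 without the 3 arrays apart. Pph13, apart with all arrays, is counted each time by necessity. Fewer arrays separate more probe sets: of all probe sets, 6.83% to 11.6% had groups apart without 1 array and 26.6% without the 3, against 5.35% with all arrays. Related genes called, 1 with all arrays (rst), were 0 to 1 without 1 array, 0 after quantile normalization, with the replicate block, without the 3 arrays apart and with no moderation, and 3 with array weights (rst, phyl and Rh7). Among the members and related genes, the replicate block changed no call other than that of rst.

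The sign of boss, at 0.00, turned after quantile normalization (-0.0172), median centring (-0.0034), with the covariate (-0.0070), without the 3 arrays apart (-0.0339) and with the array class block (-0.0166), and it ranged from -0.0426 to 0.0506 without 1 array. That of ro turned with array weights (-0.0327) and ranged from -0.0331 to 0.0633 without 1 array, and that of the dim svp probe set was -0.0499 with array weights. The causes were not tested. Array weights gave HEXIM knockdown replicate 2 a weight of 9.03, so that this fit leans on 1 array. The other 8 probe sets kept their sign under every alternative run on them. The signals of ro and of 1 svp probe set were too low to show a fall.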
